A study of Homo sapiens with 1 sample.

Results

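The histone-high cells were chosen by their measured histone RNA: they were the 15% of quality-filtered cells with the highest sum of HIST1H4C, HIST1H1B, HIST1H1E, HIST1H3B, HIST1H3G and HIST1H1D, 1836 of 12239 kept cells and of 14726 barcodes in all. The cells came from H9, an established human embryonic stem cell (hESC) line, of the WT genotype, in which the enhancer HAR123 keeps its human sequence (hHAR123). The hESCs were differentiated to neural progenitor cells (NPCs): 2 days with SB431542 (10 μM), an inhibitor of activin and TGF-β receptors, dorsomorphin (1 μM), an inhibitor of BMP receptors, and ROCK inhibitor (5 μM), then 5 days as rotating embryoid bodies without the ROCK inhibitor, then 7 days replated without any of them. Cells of 2 independent clones were pooled into a single library and taken just before neural rosettes were selected, so the library cannot separate the clones. Because this was a single library with no replicate, no difference below has a test or a p-value, and each interval is a 95% interval for counting error alone.

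A cell that copies its DNA must also make histones to wrap it, and most of those histones come from genes whose RNA is made in S phase and destroyed when replication ends. These replication-dependent histone RNAs end in a short stem-loop instead of the poly(A) tail that other mRNAs carry, and the stem-loop binding protein SLBP sees them through processing and translation. In the neural tube, progenitors cycle quickly and the daughters that leave the cycle become neurons.

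Each of the 6 genes of the rule carries this stem-loop just after its stop codon, and the sequences are shown because this end is what replication-dependent histone RNAs have in common. Of the 71 HIST genes listed, 55 lie on chromosome 6, between positions 25723397 and 27893891. A search for GG, any 2 bases, CTT, any base, T, any base, AG, any 2 bases and CC, on the gene's strand, in the 150 bases after the stop codon (GRCh38, GENCODE 44) found the stem-loop in 71 of 71 listed HIST genes, 23 to 68 bases after the stop. Capitals mark the stem-loop and lower case the 7 bases on either side, each read 5′ to 3′ on the gene's strand. HIST1H4C encodes histone H4 (chr6:26104310-26104339, plus strand), HIST1H3B and HIST1H3G encode H3 (chr6:26031590-26031619 and chr6:26270916-26270945, minus), and HIST1H1B, HIST1H1E and HIST1H1D encode linker histones H1 (chr6:27866790-27866819, minus, chr6:26157088-26157117, plus, and chr6:26234210-26234239, minus).
HIST1H4C: acccaaaGGCCCTTTTCAGGGCCgctcaca
HIST1H1B: ccccaaaGGCTCTTTTCAGAGCCacccaga
HIST1H1E: acccaaaGGCTCTTTTCAGAGCCacccacc
HIST1H3B: acccaaaGGCTCTTTTCAGAGCCacccact
HIST1H3G: ttaaaaaGGCTCTTTTAAGAGCCgcctact
HIST1H1D: tttaaacGGCTCTTTTCAGAGCCacccaca

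The library was made with a 10x Genomics 3′ kit, which primes on poly(A), and how histone RNA entered it was not tested. Some copies of histone genes are nearly identical, so the split of reads among those copies is uncertain.

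The sum of the 6 genes chose the cells, so its values are a description. Per 10000 unique molecules (UMIs) of a cell, histone-high cells held 14.3 to 60.8 histone UMIs with a median of 20.2, and the other 10403 kept cells held 0 to 14.3 with a median of 1.10. The threshold did not fall in a gap: the 10 cells just inside it had sums of 14.32 to 14.38 and the 10 just outside 14.26 to 14.31. A further 1231 of the other kept cells (11.8%) held at least 7.16, that is, within 2-fold of the threshold. The number of cells per unit of the sum went from 4917 at 0 to 1 down to 140 at 7 to 8, rose again to 196 at 13 to 14 and went down to 36 at 28 to 29, so the threshold lay near the second rise and not in the trough. Histone-high cells held 60.2% of the UMIs of the 6 genes found in kept cells, against 16.9% of all UMIs.

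**Figure D1:**
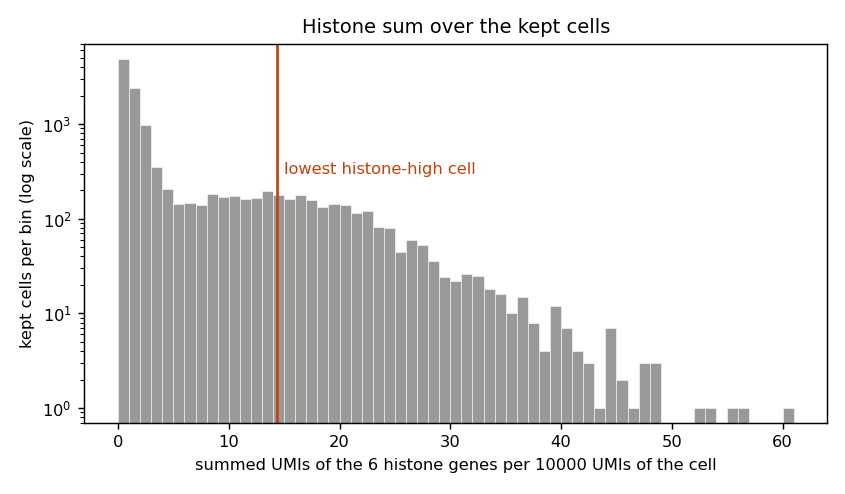
Number of kept cells (log scale) by the summed UMIs of the 6 histone genes per 10000 UMIs, in bins of 1, with a line at the lowest histone-high cell (14.3). Most cells lie below 3, a local trough lies between 5 and 8 (140 to 148 cells a bin), counts rise to 196 at 13 to 14, and the line stands in the next bin (14 to 15, 176 cells).

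HIST1H4C stood at 1473 CPM (UMIs of the gene per 1000000 UMIs, pooled over the cells) in histone-high cells and 204 in the others. HIST1H1B stood at 241 and 24.7 CPM, HIST1H1E at 173 and 28.9, HIST1H3B at 101 and 11.2, HIST1H3G at 81.4 and 10.2, and HIST1H1D at 55.6 and 7.70. Histone genes outside the rule went the same way in the same cells. Of 65 other HIST genes listed, 44 reached 1 CPM over all kept cells, and 43 of those were at least 1.5-fold higher (2.41% of 11833 genes other than histones were) and 37 at least 3-fold higher, with a median ratio of 5.56. HIST3H2A, a histone gene on chromosome 1, was the exception, with a ratio of 0.637. It carries the stem-loop (chr1:228457362-228457391, minus), but its annotated span (chr1:228434777-228457873) runs on past it. Where its RNA ended was not tested.
HIST3H2A: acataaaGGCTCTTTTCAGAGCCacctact

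Replacement histones, most of which do not depend on replication for their RNA, differed far less from the other cells. H2AFX, whose protein marks broken DNA and whose RNA can end in a stem-loop or a poly(A) tail, was 1.68-fold higher (174 against 104 CPM, interval 1.63 to 1.72), and H1F0, a linker histone, 1.54-fold (25.3 against 16.4 CPM, 1.44 to 1.66). The other 9 replacement genes lay between 0.966 for CENPA, the centromeric H3 made in G2, and 1.3 for H1FX. H3F3A and H3F3B, the H3.3 genes, were at 1.04 and 1.10.

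The label S-phase progenitors was checked against genes that the rule did not use. Each cell was scored with the Seurat lists of S-phase and G2/M genes (42 of 43 and 52 of 54 matched, none a histone) and assigned to the higher score, or to G1 where neither was above 0. S was called for 802 histone-high cells (43.7%, interval 41.4 to 46.0%), G2/M for 1033 (56.3%, 54.0 to 58.5%) and G1 for 1 (0.0545%, 0.00138 to 0.303%). Among other kept cells 38.7% were called S, 29.3% G2/M and 32.0% G1. Both scores were above 0 in 1795 histone-high cells (97.8%, 97 to 98.4%) and in 3004 of the other cells (28.9%, 28.0 to 29.8%). The 2 scores lay within 0.1 of each other in 686 histone-high cells (37.4%), so the call between S and G2/M turned on a small difference for many of them. With other limits on the kept cells, given at the end, S was the larger share (51.4% and 50.6%).

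Thinned to 5000 UMIs a cell, the calls in histone-high cells were 48.7% S, 51.2% G2/M and 0.0545% G1 (1 cell under 5000 UMIs was left out), against 39.0%, 28.0% and 33.0% in the other cells (13 left out). Both scores were then above 0 in 91.2% of histone-high cells (89.8 to 92.5%) and 24.8% of the other cells (23.9 to 25.6%), and within 0.1 of each other in 35.7% of histone-high cells. The phase lists place the cells inside the cycle with S and G2/M genes present together. They do not place them in S phase alone, and the cells are therefore called histone-high here.

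**Figure D2:**
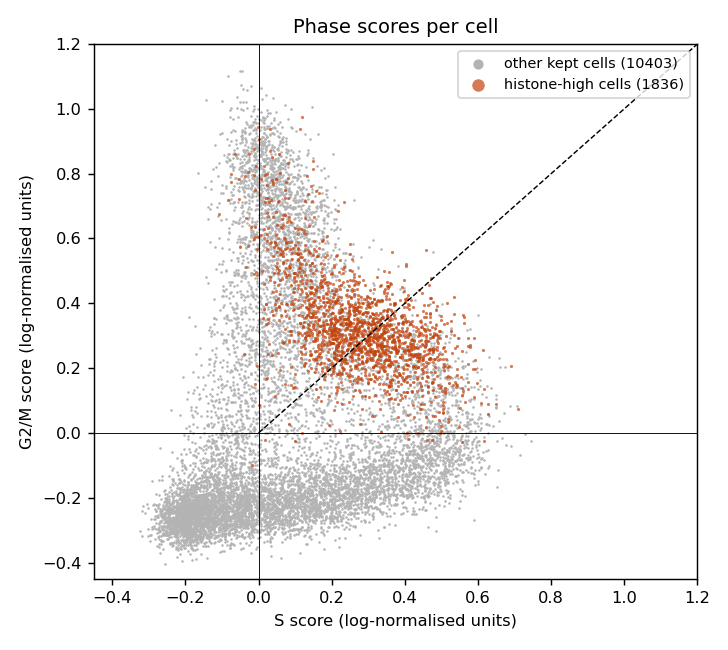
S score against G2/M score of every kept cell, 1836 histone-high cells in orange and 10403 others in grey, with the line of equal scores dashed. Histone-high cells gather on both sides of the dashed line with medians of 0.269 (S) and 0.308 (G2/M), between the S arm at lower right and the G2/M arm at upper left.

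The cells were neural progenitors by their markers, like the cells around them. SOX2 stood at 442 CPM in histone-high and 407 in other cells, PAX6 at 58.6 and 54.0, NES at 237 and 239, and FABP7 at 507 and 482. None of the 13 neural progenitor genes and none of 7 forebrain genes at 5 CPM or more differed 1.5-fold, with median ratios of 1.07 and 1.02. Over all genes tested 2.41% were higher and 2.38% lower, so these counts were near that share. Summed over the lists, the ratios were 0.938 (0.933 to 0.944) and 1.03 (1.03 to 1.04). The Notch target HES5 (1.3) and the receptor NOTCH1 (1.34) were highest of the progenitor list, and VIM, which encodes the filament vimentin, was lowest (0.761, 714 against 939 CPM). Pluripotency genes were close to absent, with POU5F1 and NANOG both at 0.249 CPM in histone-high cells. Of 9 contractile genes at 5 CPM or more, none differed 1.5-fold (median 0.891), again near the share over all genes. Their summed ratio was 0.887 (0.880 to 0.893). The 1497 barcodes richest in ANXA1, TFPI2 and CTGF had been left out beforehand, so the contractile values cover only the cells that remained. Of 7 immediate early and stress genes, EGR1 alone differed 1.5-fold (10.9 against 6.31 CPM, 1.73-fold).

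Histone-high cells were deeper. Their median was 20532 UMIs and 6035 genes a cell, against 16228 and 5293, with mitochondrial shares of 5.06% and 5.20%. With kept cells divided by depth into 3 parts of equal size, they made up 4.02% of the shallowest part, 17.8% of the middle part and 23.2% of the deepest part. The summed contractile ratio was 1.01 in the shallowest part, 0.704 in the middle part and 0.779 in the deepest part. How far depth itself bore on each ratio was not tested. Of 275 genes on the lists below at 5 CPM or more, 74 had ratios on both sides of 1 in the 3 depth parts, and their pooled ratios carry no single direction. Among genes given with a ratio to the other cells, from the shallowest part to the deepest, these were MCM6 (1.198, 0.781 and 0.914), CCNE2 (1.499, 0.888 and 0.910), E2F1 (1.266, 0.833 and 0.781), CENPA (3.04, 1.46 and 0.638), CDKN1A (3.33, 2.04 and 0.809), WEE1 (1.61, 1.04 and 0.932), ATR (0.818, 0.975 and 1.02), RAD21 (1.07, 0.974 and 0.893), FABP7 (0.961, 1.176 and 1.178) and, with values below, MCM5 and genes of the G2 and mitosis list.

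Beyond the histones, 11833 genes had at least 5 CPM over all kept cells, and their median ratio of histone-high to other cells was 0.977. At least 1.5-fold higher were 285 (2.41%) and at least 1.5-fold lower 282 (2.38%), each with an interval that excluded 1. The ratios ran from 0.138 to 3.28. Counted against other cells called S or G2/M only, a comparison chosen after the values were seen, 97 genes were higher and 116 lower.

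The 12 genes with the highest and the 12 with the lowest ratio among the 7698 genes at 20 CPM or more are named here. ESCO2, the acetyltransferase that locks cohesin onto newly copied sister chromatids, was highest of these at 75.7 against 27.4 CPM (2.76-fold, interval 2.64 to 2.88). CDCA5, or sororin, which then protects that cohesion, stood at 51.7 against 20.4 CPM (2.53-fold, 2.40 to 2.67). SPC25 (156 against 59.2 CPM, 2.64-fold) and SPC24 (39.1 against 17.6 CPM, 2.22-fold) encode partner subunits of the NDC80 complex that holds microtubules at the kinetochore. SKA3, of another kinetochore complex, was 2.18-fold higher.

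RRM2, the S-phase subunit of ribonucleotide reductase, stood at 146 against 55.3 CPM (2.63-fold, 2.55 to 2.71). TYMS, thymidylate synthase, stood at 330 against 139 CPM (2.36-fold, 2.31 to 2.41). PCLAF, which binds the replication clamp PCNA, stood at 282 against 110 CPM (2.56-fold, 2.50 to 2.62). The remaining leaders were RAD51AP1, a factor of recombination repair (2.44-fold), MYBL2, a transcription factor of the cell cycle (2.27-fold), the kinase MELK (2.23-fold) and the histone chaperone ASF1B (2.17-fold). All 12 were above 1 in each depth part, with ratios from 1.43 to 9.86. They were picked as the highest in the same cells, so this was likely from the start.

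Of the 12 genes lowest among those at 20 CPM or more, STMN2 was the only 1 on any of the gene lists. STMN2, a microtubule regulator of neurons, stood at 6.11 against 32.4 CPM (ratio 0.188, 0.165 to 0.214), and its ratio to other cells called S or G2/M alone was 0.462 (13.2 CPM in those cells). FBXL20, an F-box protein, stood at 33.6 against 92.9 CPM (0.362, 0.342 to 0.382). PNPLA3, a lipid droplet enzyme, was at 0.462, PNRC1, a nuclear receptor coactivator, at 0.473, CA2, a carbonic anhydrase, at 0.492, and DDIT4, an inhibitor of mTORC1, at 0.506. PCDH17, a protocadherin, and NRP1, a receptor for semaphorins, were at 0.525 and 0.543. AC068051.1 (0.399), AC098829.1 (0.492), ARMH1 (0.515) and AP002026.1 (0.546) completed the 12. All were below 1 in each depth part, with ratios from 0.127 to 0.738, which the pick from the same cells made likely. Against other cells called S or G2/M, DDIT4 was at 0.728 and alone of the 12 was no longer 1.5-fold lower.

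By lists, most genes of the replication fork leaned higher. Of 43 fork genes at 5 CPM or more, 17 were at least 1.5-fold higher and none lower, with a median of 1.44 against 0.977 over all genes. For this list and those below, the share over all genes tested was 2.41% higher and 2.38% lower. They included FEN1, the flap nuclease that trims Okazaki fragments (102 against 53.9 CPM, 1.90-fold), LIG1, the ligase that joins them (78.0 against 45 CPM, 1.73-fold), CDC45 of the replicative helicase (1.84-fold), the primase partner POLA1 (1.51-fold) and DNMT1, which copies DNA methylation (1.63-fold). PCNA itself was 1.32-fold higher (139 against 106 CPM, 1.28 to 1.36). Summed over the list, fork RNA was 1.43-fold higher (1.43 to 1.44).

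Nucleotide supply had 7 of 19 genes at least 1.5-fold higher and none lower (median 1.3), against 2.41% and 2.38% over all genes. DUT, which keeps uracil out of DNA, stood at 266 against 147 CPM (1.81-fold), RRM1 at 224 against 128 CPM (1.76-fold) and TK1, thymidine kinase, at 38.7 against 22.4 CPM (1.72-fold). The enzymes of purine synthesis on the list were near 1, with GART at 1.18, PPAT at 1.13 and ATIC at 0.883.

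Licensing genes, which load the MCM helicase on origins in G1, differed less than fork genes. GMNN, which blocks relicensing within S and G2, was the 1 of 15 that passed 1.5-fold (162 against 99.9 CPM, 1.62-fold, 1.58 to 1.67). Over all genes 2.41% were 1.5-fold higher and 2.38% lower. The helicase subunits were split, with MCM4 at 1.39, MCM7 at 1.38, MCM2 at 1.27 and MCM3 at 1.21, but MCM6 at 0.895 and MCM5 at 0.781 (35.4 against 45.3 CPM, 0.738 to 0.826). In the depth parts MCM5 was at 1.16 (shallowest), 0.656 and 0.842 (deepest). Summed over the list the ratio was 1.23 (1.22 to 1.24).

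E2F targets that mark entry into S phase had no common direction, with 3 of 15 higher, 1 lower and a median of 1.12. The share over all genes was 2.41% higher and 2.38% lower. E2F8 (20.9 against 8.54 CPM, 2.44-fold) and E2F7 (95.4 against 44.9 CPM, 2.13-fold), both repressors of the same program, were highest, followed by the chromatin remodeler HELLS (1.54-fold). CCNE1, cyclin E1, was at 1.38, but CCNE2 at 0.944, the activator E2F1 at 0.851 and CDCA7 at 0.609 (18.7 against 30.7 CPM, 0.564 to 0.657). Among G1 cyclins, CCND2 was at 0.684 (107 against 156 CPM), CCND1 at 0.762 and CCND3 at 0.778. CDKN2D, an inhibitor of CDK4 and CDK6, was 2.39-fold higher (22.2 against 9.25 CPM, 2.21 to 2.60) and was the 1 of 12 genes of that list past 1.5-fold.

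Genes that repair stalled forks had the highest median of the lists other than histones, 1.52, with 12 of 21 at least 1.5-fold higher and none lower. RAD54L (2.08-fold) and EXO1 (1.98-fold) act in recombination, FANCI (167 against 80.5 CPM, 2.08-fold) and FANCD2 (1.80-fold) form the Fanconi complex at crosslinks, and BLM is a helicase (1.94-fold). BRCA1 stood at 129 against 76.4 CPM (1.69-fold) and BRCA2 at 113 against 69.2 CPM (1.63-fold). The checkpoint kinases CHEK1 (1.27), WEE1 (1.10) and ATR (1.01) were below 1.5-fold. None of 8 p53 targets at 5 CPM or more passed 1.5-fold (median 1.04), near the share over all genes (2.41% higher and 2.38% lower). CDKN1A, the inhibitor p21, was listed with the CDK inhibitors and stood at 7.43 against 5.98 CPM (1.24-fold).

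Of 22 histone chaperones 4 were at least 1.5-fold higher and none lower (median 1.23), against 2.41% and 2.38% over all genes. ASF1B carries new H3 and H4 to DNA (52.6 against 24.2 CPM, 2.17-fold), CHAF1A is a subunit of the assembly factor CAF-1 (126 against 76.3 CPM, 1.65-fold), HJURP loads CENPA at centromeres (2.07-fold) and SUPT16H is a subunit of FACT (1.5-fold). ASF1A, the paralog of ASF1B, was at 0.838 (36.9 against 44 CPM).

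The machinery that makes and processes histone RNA was slightly higher. None of 14 genes at 5 CPM or more passed 1.5-fold in either direction, near the share over all genes (2.41% higher and 2.38% lower). Above 1 were 12 of them, with a median of 1.13 against 0.977 over all genes. The summed ratio was 1.16 (1.15 to 1.17), and 1.29, 1.13 and 1.11 in the depth parts, shallowest first. In those parts 6 of the 14 genes had ratios on both sides of 1. NPAT, the coactivator of histone genes, was at 1.21 (31.7 against 26.2 CPM), SLBP at 1.15 (56.9 against 49.5 CPM, 1.10 to 1.20) and CASP8AP2 at 1.15. The highest was POU2F1, or OCT1, at 1.33. The median ratio of histone genes outside the rule was 5.56 in the same cells.

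**Figure D3:**
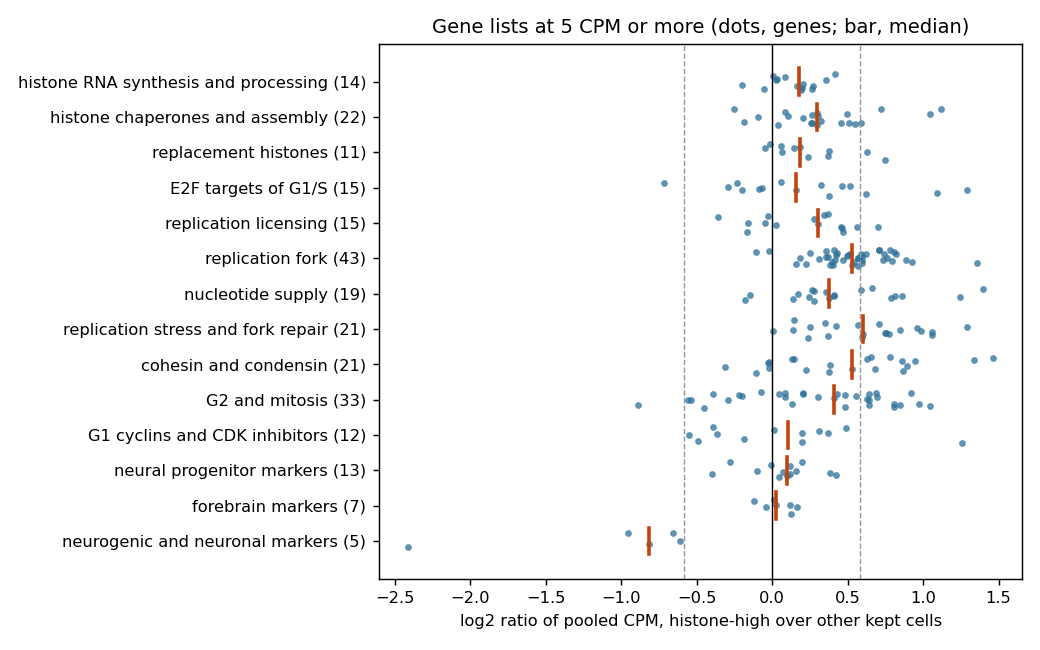
Log2 ratio of pooled CPM in histone-high over other kept cells for genes of 14 lists at 5 CPM or more, with the median as a bar and 1.5-fold in either direction as dashed lines. The medians of fork (1.44-fold), cohesin and condensin (1.44-fold) and fork repair genes (1.52-fold) lie to the right, the neuronal genes (0.568) to the left, and histone processing genes near 0.

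Cohesin and condensin genes had 10 of 21 at least 1.5-fold higher and none lower (median 1.44), against 2.41% and 2.38% over all genes. The subunits of condensin led after ESCO2 and CDCA5, among them NCAPG (124 against 66.8 CPM, 1.86-fold), NCAPH (1.82-fold) and SMC4 (358 against 209 CPM, 1.72-fold). The cohesin subunits SMC3 (1.3) and RAD21 (0.987), its loader NIPBL (0.927) and the second acetyltransferase ESCO1 (41.6 against 51.5 CPM, 0.806) were near or below 1.

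The G2 and mitosis list was divided. Of 33 genes 12 were at least 1.5-fold higher and 1 lower (2.41% and 2.38% over all genes), with a median of 1.33. The phosphatase CDC25C (86.1 against 41.7 CPM, 2.06-fold), the kinetochore protein NDC80 (1.96-fold), the spindle proteins NUSAP1 (361 against 190 CPM, 1.90-fold) and KIF11 (1.80-fold) and the kinase CDK1 (121 against 77.5 CPM, 1.56-fold) were higher. CCNB1 (0.815) and CCNB2 (71.5 against 105 CPM, 0.681), the B cyclins, were lower, as were the kinase PLK1 (0.731), the anaphase activator CDC20 (37.6 against 54.6 CPM, 0.689), securin PTTG1 (0.763) and CDC25B (0.541), which alone passed 1.5-fold.

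Summed, G2 and mitosis RNA was 1.26-fold higher (1.254 to 1.266) in histone-high cells, and this value depended on the cells it was set against. In the shallowest part of kept cells the ratio was 2.94, in the middle part 1.87 and in the deepest part 0.847. Against other cells called S or G2/M it was 0.985. From the shallowest part to the deepest, CDC25C was at 9.09, 3.32 and 1.26 and NUSAP1 at 5.37, 2.86 and 1.22, above 1 in each. CCNB2 was below 1 in each, at 0.957, 0.823 and 0.532. CDK1 (7.87, 2.95 and 0.911), TOP2A (4.95, 2.65 and 0.913), CCNB1 (1.82, 1.15 and 0.564), PLK1 (2.41, 1.37 and 0.452), CDC20 (1.62, 0.994 and 0.467) and PTTG1 (1.09, 0.955 and 0.594) were among 21 of the 33 genes with ratios on both sides of 1. The fork ratio stayed above 1 in the same parts (1.89, 1.46 and 1.28), as did the licensing ratio (1.56, 1.20 and 1.15).

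Genes of neurogenesis and neurons were lower. All 5 of them at 5 CPM or more were at least 1.5-fold lower, against 2.38% over all genes (median 0.568): STMN2, ELAVL3 (0.516), DLL3 (0.568), DCX (49.0 against 77.4 CPM, 0.633) and the Notch ligand DLL1 (20.8 against 31.8 CPM, 0.654). The other 9 of the 14 were below 5 CPM, with NEUROD1 at 0.125 against 1.59 CPM and EOMES at 0.199 against 1.5 CPM. The summed ratio of the list was 0.517 (0.4999 to 0.5345), and within the depth parts, shallowest first, 0.359, 0.525 and 0.732. Against the 7071 other cells called S or G2/M, a comparison chosen after the values were seen, the summed ratio was 0.765 (0.739 to 0.792), and STMN2 alone was still 1.5-fold lower, with ELAVL3 at 0.695, DLL1 at 0.776, DLL3 at 0.787 and DCX at 0.834.

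The promoters of SPC25 and PCLAF are shown as examples that hold matches, chosen from the genes that were higher together, since cell cycle genes are known for short motifs near their starts: E2F sites in genes of S phase, and the CHR element with CCAAT boxes in genes of G2 and mitosis. SPC25 (chr2:168890381-168890680, minus strand) and PCLAF (chr15:64381392-64381691, minus strand) are given as 250 bases before to 50 after the start, from RefSeq on GRCh38.p14, 5′ to 3′ on the gene's strand. Capitals mark the letters found: TTTGAA or TTTAAA (CHR) and CCAAT in SPC25, and TTTCCCGC (E2F) and CCAAT in PCLAF, on either strand.
SPC25: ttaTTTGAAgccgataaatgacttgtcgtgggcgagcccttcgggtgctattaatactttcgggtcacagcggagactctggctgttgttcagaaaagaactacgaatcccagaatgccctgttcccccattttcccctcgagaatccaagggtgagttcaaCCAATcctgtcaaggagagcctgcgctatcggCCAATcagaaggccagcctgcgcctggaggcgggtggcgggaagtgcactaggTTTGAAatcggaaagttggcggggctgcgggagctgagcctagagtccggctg
PCLAF: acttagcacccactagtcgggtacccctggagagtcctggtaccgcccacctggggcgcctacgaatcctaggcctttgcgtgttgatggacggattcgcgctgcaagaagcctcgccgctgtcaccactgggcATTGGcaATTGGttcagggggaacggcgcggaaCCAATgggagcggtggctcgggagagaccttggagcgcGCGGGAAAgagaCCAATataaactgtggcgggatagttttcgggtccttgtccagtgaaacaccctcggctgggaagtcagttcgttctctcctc
In SPC25 CHR matches began 3 and 247 bases before the start and CCAAT matches 56 and 88 bases before it. In PCLAF an E2F match in the minus orientation began 45 bases before the start and CCAAT matches stood 33, 83, 109 and 116 bases before it. RefSeq lists another PCLAF start (chr15:64387638-64387937, minus strand) whose window held none of these letters, nor did those of MYBL2 and MELK. Of the 12 named higher genes 11 had a listed promoter, with an E2F form in 3, a CHR form in 4 and CCAAT in 6. Of the 12 named lower genes 5 had a listed promoter, with CCAAT in all 5 and no E2F or CHR form.

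At least 1 of 3 E2F forms (TTTCCCGC, TTTGGCGC, TTTCGCGC) stood in 36 of the 220 higher genes with a listed promoter (16.4%), in 4 of 174 lower genes (2.30%), in 5.72% of 9085 genes tested and in 3.30% of all 27305 promoters. A CHR form stood in 88 higher genes (40.0%), 39 lower genes (22.4%), 22.0% of genes tested and 27.9% of all promoters. CCAAT stood in 55.9%, 43.1%, 44.3% and 39.7%. Both strands were searched and no form contains another. A match describes the letters alone. The median span of the gene in GENCODE 44 was 44 kb for higher, 60.2 kb for lower and 41.6 kb for all genes tested.

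The 20 equal bins of kept cells by histone sum showed where along the range these levels changed. From the 14th bin (2.50 to 3.65 per 10000) to the 16th (7.20 to 10.8), which held no histone-high cell, G1 calls went from 29.7% to 0.654%, G2/M calls from 26.3% to 58.2% (thinned, from 29.3% to 1.14% and from 25.5% to 57.2%), and ESCO2 from 28.3 to 63.2 CPM. In the top 3 bins, which held nearly all histone-high cells, ESCO2 was level at 75.6, 75.8 and 75.3 CPM while PCLAF went on from 261 to 276 and 313 CPM, RRM2 from 137 to 146 and 154 CPM. CCNB2 was 120 CPM in the 15th bin and 72.9, 71.1 and 70.2 CPM in the top 3. The lowest 3 bins held no histone UMI, so their division is arbitrary. Over the 2157 kept cells without a histone UMI STMN2 stood at 59.6 CPM (84.2, 36.1 and 61.8 in those bins) and CCND2 at 167, against 4.0 and 99.8 CPM in the highest bin. In the low bins a single histone UMI decided the bin, so their order follows depth as well (the 4th bin had a median of 23192 UMIs a cell, the 8th 11752).

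**Figure D4:**
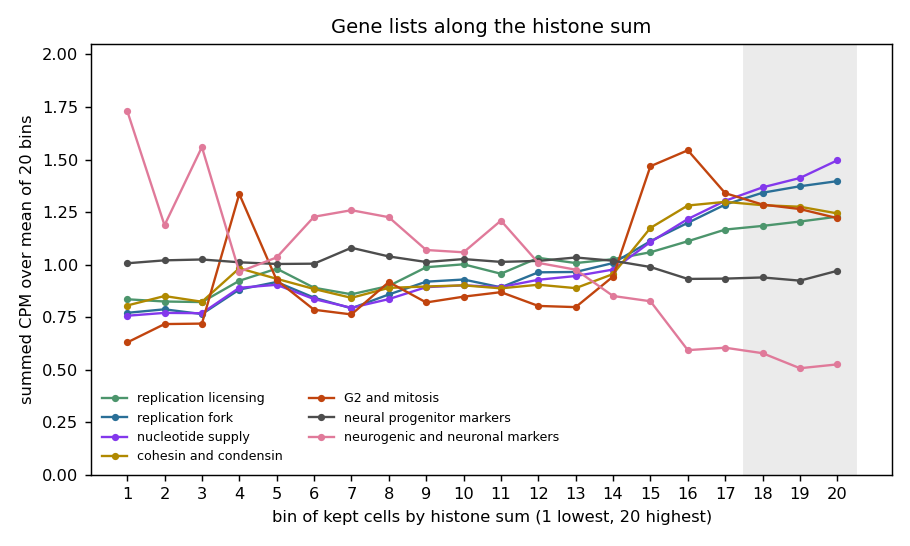
Summed CPM of 7 gene lists in 20 bins of kept cells by histone sum (612 cells each, 611 in the last), divided by the mean of the bins, with the 3 bins of histone-high cells shaded. Fork and nucleotide supply genes climb through the shaded bins, G2 and mitosis genes are highest in bin 16, and neuronal genes are lowest in the shaded bins.

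Histone-high cells differed among themselves in the rest of the cycle program. They were divided into 3 parts of 612 cells by the sum of MCM2 to MCM7, and the histone sum was nearly the same in each (medians of 19.8, 20.7 and 20.1 per 10000 from the lowest MCM part to the highest). Scored with the S and G2/M lists without the MCM genes and the mitotic genes named below (38 and 49 genes left), S calls went from 20.8% to 51.5% and 82.8% (24.7%, 51.6% and 76.6% thinned to 5000 UMIs a cell). In the same order CCNE1 stood at 10.9, 22.4 and 43.7 CPM, PCNA at 84.7, 135 and 197, RRM2 at 93.5, 149 and 193, and SLBP at 38.4, 53.5 and 78.9. TOP2A, the topoisomerase that untangles sister chromatids, went the other way at 663, 508 and 373 CPM, as did CCNB1 at 176, 126 and 109.

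The leaders SPC25 (161, 147 and 161 CPM), SPC24 (39.7, 39.4 and 38.2) and MELK (117, 117 and 121) were alike in the 3 parts, and ESCO2 ran from 69.7 to 83.1. Progenitor genes varied too: SOX2 was 536, 443 and 347 CPM, HES5 260, 230 and 186, PAX6 71.7, 56.6 and 47.5, and VIM 610, 731 and 801. Median depth was close in the 3 parts (20747, 20807 and 19852 UMIs a cell).

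For comparison, 2 sets of equal size were cut in the same way. Licensing-high cells were the 15% with the most MCM2 to MCM7 RNA, and G2/M-high cells the 15% with the most RNA of UBE2C, CCNB1, CDC20, PLK1, ASPM and CENPF. Of the histone-high cells 310 (16.9%) were also licensing-high, 122 (6.64%) also G2/M-high, 1 was in both, and 1405 (76.5%) were in neither. Each of the 2 sets held 15% of all kept cells by its cut. The 16.9% was thus near the share over all kept cells, and the 6.64% was below it. Most of all kept cells were in neither set as well. The S list holds 4 of the MCM genes and the G2/M list 3 of the mitotic genes. Scored without them, S was called for 95.3% of licensing-high cells (94.2 to 96.2%) and 51.7% of histone-high cells (49.4 to 54.0%), and G2/M for 99.6% of G2/M-high cells (99.2 to 99.8%) and 48.3% of histone-high cells. Thinned to 5000 UMIs a cell, the S calls were 92.2% and 51.0% and the G2/M calls 98.9% and 48.9%. The median histone sums of those sets were 2.04 and 1.46 per 10000. In each comparison the genes that cut the set compared with were left out of the lists, those that cut the other set stayed in, and cells in both sets were left out. Other genes that rise and fall with the cutting genes stayed in. Lower mitotic RNA than in G2/M-high cells and lower G1/S targets than in licensing-high cells were thus favoured by the cuts. Higher mitotic RNA than in licensing-high cells and higher replication RNA than in G2/M-high cells were not particular to histone-high cells either. The other kept cells had a mean mitotic sum of 10.5 per 10000 against 5.99 in licensing-high cells (medians 3.97 and 4.76). Their mean MCM2 to MCM7 sum was 4.98 against 3.60 in G2/M-high cells. All these differences are given as descriptions.

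Against 1526 licensing-high cells, 1526 histone-high cells had 160 of 7664 genes at 20 CPM or more at least 1.5-fold higher (2.09%) and 99 lower (1.29%). All 30 G2 and mitosis genes at 20 CPM or more were among the higher (median 2.97), with UBE2C at 176 against 33.1 CPM (5.30-fold, 4.95 to 5.69), TOP2A at 549 against 105 CPM (5.22-fold) and MKI67, the Ki-67 antigen, at 342 against 88.1 CPM (3.88-fold). Of 14 E2F targets of G1/S, 9 were lower and none higher (median 0.443). CDCA7 stood at 14.6 against 66.8 CPM (0.219), E2F1 at 27.6 against 78.9 CPM (0.350), CCNE1 at 20.1 against 50.4 CPM (0.398) and DTL, which helps destroy the licensing factor CDT1, at 79.9 against 198 CPM (0.404). Fork genes (0 higher and 4 lower of 40, median 0.877) and nucleotide supply (0 of 19 past 1.5-fold) were closer.

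Against 1714 G2/M-high cells the direction was the opposite. Of 7693 genes, 150 were at least 1.5-fold higher in 1714 histone-high cells (1.95%) and 175 lower (2.27%). Of 26 G2 and mitosis genes 22 were lower (median 0.497), among them AURKA, the mitotic kinase, at 42.8 against 168 CPM (0.255), CCNB2 at 66.0 against 251 CPM (0.263) and the kinesin KIF20A at 11.1 against 46.5 CPM (0.237). Fork genes were higher in 16 of 40 and lower in 1, licensing genes higher in 6 of 15, and E2F targets in 5 of 10. Of 5 p53 targets 2 were higher and 0 lower, as was also the count against licensing-high cells. PCLAF stood at 293 against 95.9 CPM (3.05-fold), CDC6, a loader of the helicase, at 50.1 against 18.3 CPM (2.74-fold) and DUT at 276 against 102 CPM (2.71-fold). The highest ratio was that of GRM8, a glutamate receptor, at 87.8 against 18.7 CPM (4.70-fold, 4.36 to 5.08). The rest of the 12 highest ran from LHFPL3 (3.00-fold) through BICC1, CALN1, AC092691.1, PDE8A, MDGA2 and STXBP6 to HS6ST3 (2.50-fold).

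**Figure D5:**
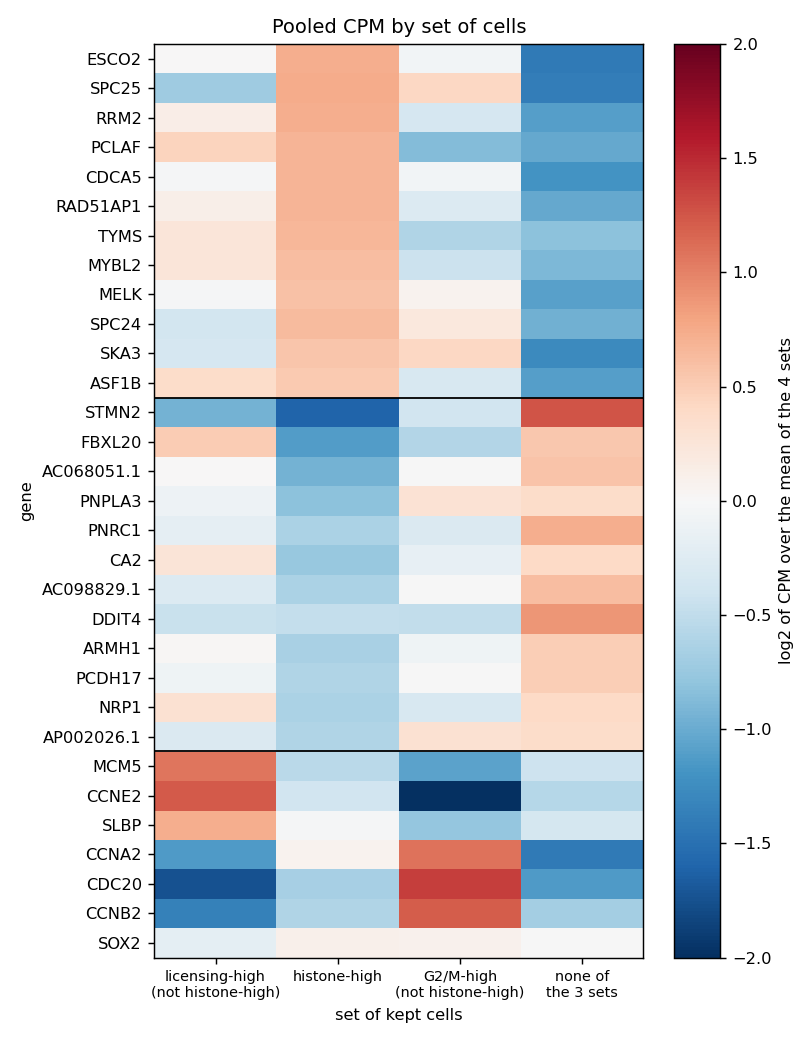
Pooled CPM of the 24 named genes and 7 cycle and progenitor genes in licensing-high cells, histone-high cells, G2/M-high cells and kept cells in none of these sets (from left to right, the licensing-high and G2/M-high cells without histone-high ones), as log2 over the mean of the 4 sets. ESCO2 (46.3, 75.7, 44.1 and 17.2 CPM in that order) and SPC25 (57.0, 156, 125 and 36.0) are highest in histone-high cells, CCNE2 in licensing-high and CCNB2 in G2/M-high cells, while MCM5 and CDC20 are genes that cut those sets.

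Side by side, ESCO2 and SPC25 were higher in histone-high cells than in either set, while SLBP stood at 95.0 CPM in licensing-high, 56.9 in histone-high and 33.6 in G2/M-high cells. The level of ESCO2 was not particular to histone-high cells: it was 63.2 and 65.4 CPM in the 16th and 17th bins by histone sum, just below them. CDC25C went in that order from 30.8 to 86.1 and 106 CPM and CCNA2, cyclin A2, from 33.9 to 78.1 and 158 CPM. STMN2 was low in all of them (9.64, 6.11 and 14.2 CPM) and stood at 44.1 CPM in kept cells outside the sets.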

How the data were processed

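A single library of differentiated H9 cells was analysed. Raw UMI counts per gene and cell (33538 genes, 14726 barcodes, none repeated, 327640709 UMIs) were deposited by the authors. The submitters' processing notes name Cell Ranger 7.0.1, Seurat 4.4.0 and GRCh38, and the annotation version and strand setting are not given in the sources used here. Cells with 2000 to 10000 genes, at least 1% and under 10% mitochondrial UMIs, and under 5 UMIs of ANXA1, TFPI2 and CTGF per 10000 were kept (189 and 1497 barcodes fell to the lower mitochondrial and the last limit). Kept cells held 3167 to 92060 UMIs. The set, its gene lists and the comparisons were chosen with earlier results of these data known.

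Counts were pooled over cells. Levels are CPM, and ratios carry exact conditional Poisson intervals and shares exact Clopper-Pearson intervals (95%), for counting error only. UMIs of 1 library are no replicates, so no test was made. Genes at 5 CPM or more were counted at 1.5-fold, HIST genes left out. The 12 highest and 12 lowest ratios at 20 CPM or more were named, with members of the gene lists. Against the licensing-high and the G2/M-high set, genes from the 12 highest and 12 lowest were named as examples. Phases were scored in scanpy 1.11.5 with the lists of Seurat 5.3.0. Phase calls and shares of scores were repeated with cells thinned to 5000 UMIs, and overlaps of the sets were not. Scrublet's automatic threshold marked 2 barcodes and so did not work. Doublets stayed in, and an alternative left out the 8% of barcodes with the highest scores (1178 in all, 4.79% of histone-high and 8.38% of other kept cells). Stem-loops were read from GRCh38 with GENCODE 44 (66 genes matched by identifier, 5 by an older symbol listed in RefSeq) and promoters from RefSeq (220 of 285 higher genes matched). The calculations were tested on simulated data, in Python 3.11.15.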

Additional observations from a re-analysis of the deposited data

How the results depend on the processing

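With 1 library there was no replicate to leave out and no paired analysis was possible because a single sample was analysed here. The count of higher and lower genes (285 and 282) followed the thresholds: 890 and 1320 at a 25% difference in place of 50%, 39 and 29 at 2-fold, 2518 and 3439 with no filter on low genes, 170 and 74 at 20 CPM. Lower genes numbered 438 with thinned cells and 492 without the ANXA1, TFPI2 and CTGF limit. The share called S was 48.2% with cells thinned before the cut, 51.4% without that limit and 50.6% without the lower mitochondrial limit. The licensing ratio was 1.27 thinned, 1.31 without the ANXA1, TFPI2 and CTGF limit, 1.254 without high Scrublet scores and 1.28 as a mean over cells. The fork ratio was 1.49, 1.52, 1.46 and 1.52 in the same order, 1.41 for the top 10%, 1.45 for the top 20% and 1.42 with the sum of 3 histone genes. The G2 and mitosis ratio was 1.59 thinned, 1.31 without the ANXA1, TFPI2 and CTGF limit, 1.56 as a mean over cells, 1.22 for the top 10%, 1.32 for the top 20% and 1.27 with 3 histone genes. Chosen after seeing the data were comparisons with S- or G2/M-called cells only and with cells at or below the median histone sum: higher genes 97 and 466, lower genes 116 and 463, licensing 1.07 and 1.32, fork 1.22 and 1.60, G2 and mitosis 0.985 and 1.45. The first turned the direction of the G2 and mitosis ratio, and the cause was not tested. Also added then was phase scoring without MCM2 to MCM7 and the 6 mitotic genes, with 51.7% called S. Among the 24 named genes, 132 of 264 values under alternatives moved beyond the counting interval and 0 changed direction. These genes were picked as the most extreme ratios in largely the same cells. A change of direction was therefore unlikely from the start, and its absence does not show robustness. ESCO2 ran from 2.10 to 4.84 and STMN2 from 0.145 to 0.462.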
